A study of Homo sapiens with 3 samples.

Results

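The levels of 8 transcription factors that are enriched in liver were followed in PLC-PRF-5 cells. The genes are the forkhead factors FOXA1, FOXA2 and FOXA3, the nuclear receptors HNF4A and NR1H4, the basic leucine zipper factor CEBPA, the cut-homeodomain factor ONECUT1 and the homeodomain factor PROX1. They were chosen by gene symbol, so that every bead probe annotated to one of the 8 symbols is a member. The annotation used here names 9 of the 47323 bead probes of the chip for 6 of these genes. No bead probe is named for HNF4A or NR1H4, so both were not analysed here. Of the 9 bead probes, 3 were above background on all 3 arrays, 1 each for CEBPA, FOXA2 and FOXA1, and 6 were above background on none. Over the whole chip, 32.3% to 32.8% of the bead probes were above background on an array. Of 20046 genes with a named bead probe, 10396 were so on at least 1 array, so these counts are near those of all genes.

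PLC-PRF-5 is an established human cell line labelled as liver hepatoma. The cells were given the sorafenib probe, sorafenib or DMSO for 24 h, and total RNA of each was hybridised to an Illumina beadchip, 1 array per group. Sorafenib is a multi-kinase inhibitor used against hepatocellular carcinoma, and the sorafenib probe is the same drug carrying a photoaffinity group together with an alkyne. Both compounds are labelled at 10 μM, whereas the treatment field of the same samples gives 50 μM; by either source their dose and time matched. The arrays were made to ask whether the drug and its labelled form have similar effects on gene expression.

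Liver-enriched transcription factors work as a network. FOXA proteins, the pioneer factors of this network, open closed chromatin at liver enhancers, HNF4A and CEBPA then drive genes of plasma proteins and metabolism, ONECUT1 and PROX1 act in the early liver bud, and NR1H4 is the bile acid receptor. Several of them bind one another's promoters, and their levels are used to describe how far a hepatoma cell has kept the hepatocyte state.

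The mean background-subtracted intensity was 164 on the sorafenib probe array, 159 on the sorafenib array and 183 on the DMSO array, and 32.3% to 32.8% of the bead probes were above background. A bead probe counts as above background when its detection p, the share of negative control bead probes of that array that are at least as bright, is under 0.01. The intensities below were corrected with a normexp model and an offset of 16, which makes differences of dim bead probes smaller than they are, then quantile normalized. Each group is 1 array, so no difference here has a replicate check or a p-value. As a guide to spread, each member is set beside the 500 genes nearest to it in mean intensity among the 8750 genes above background on all arrays. The DMSO array serves both comparisons, so anything particular to that array enters both differences. In bulk RNA, a change in the number of cells that carry a transcript and a change per cell cannot be told apart.

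CEBPA was the member that stood apart. This basic leucine zipper factor holds hepatocytes in a differentiated, non-dividing state and drives liver metabolic genes. Its bead probe had a normalized intensity of 167 with the sorafenib probe and 167 with sorafenib, against 89.2 with DMSO. The 2 compound arrays were nearly equal and the DMSO array was the low one. The deposited background-subtracted intensities behind these values were 145 with the sorafenib probe, 142 with sorafenib and 80.3 with DMSO, each brighter than all negative controls (detection p of 0). CEBPA was therefore 1.87-fold higher with the sorafenib probe and 1.87-fold higher with sorafenib than with DMSO, log2 differences of 0.90 and 0.90. Among the 500 genes of like intensity, 2 had a difference as high with the sorafenib probe and 0 with sorafenib, and the middle 95% of them ran from -0.51 to 0.59 and from -0.52 to 0.53. Over all 8750 genes CEBPA ranked 34 from the top with the sorafenib probe and 28 with sorafenib.

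No member reached 2-fold in either direction under this processing, and 1 of the 3 measured members, CEBPA, was at least 1.5-fold higher with each compound. Across the 10055 genes compared for the sorafenib probe, 0.259% were at least 2-fold higher and 0.169% lower, and 2.39% were at least 1.5-fold higher and 2.05% lower. Across the 10052 genes compared for sorafenib these shares were 0.169% and 0.119% at 2-fold, and 2.23% and 2.01% at 1.5-fold. With the authors' own quantile normalized intensities, CEBPA passed 2-fold with both compounds. There it had 143 with the sorafenib probe, 143 with sorafenib and 69.3 with DMSO, log2 differences of 1.04 and 1.05. Passing 2-fold on the higher side was also more common in that table, at 413 of 10396 genes with the sorafenib probe and 419 with sorafenib, where the measured differences under the processing used here gave 56 and 35. CEBPA rests on 1 bead probe, so no second one bears on it.

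**Figure D1:**
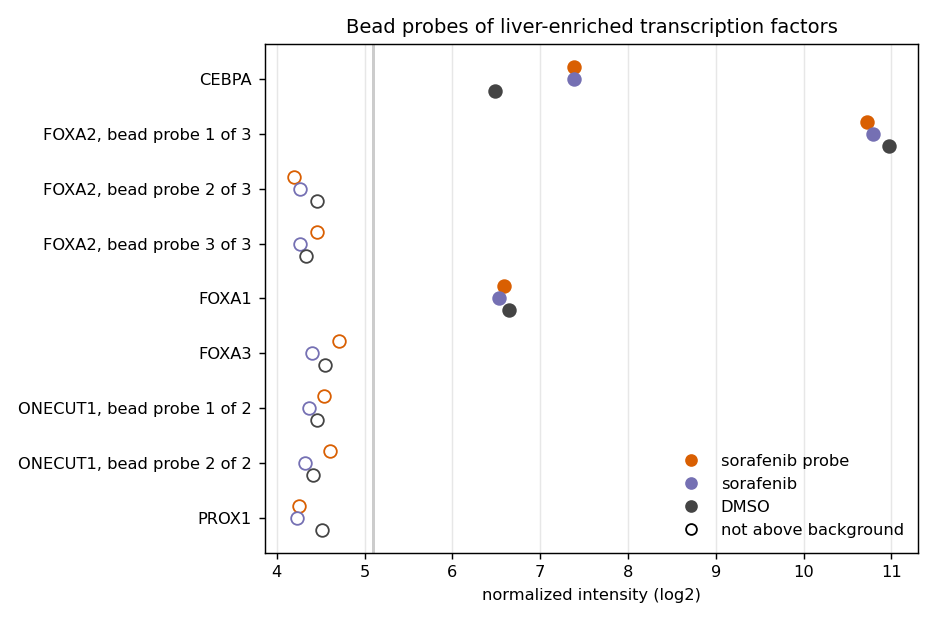
Normalized intensity (log2, x axis) of the 9 bead probes of liver-enriched transcription factors (rows) on the sorafenib probe, sorafenib and DMSO arrays, 1 array each; open circles are not above background and the grey band spans the lowest value above background on each array (5.09 to 5.12). Intensities can be compared within a row and not between rows. The CEBPA row has both compound arrays (7.38 and 7.38) to the right of DMSO (6.48), and 6 rows lie wholly below the band.

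The proximal promoter of CEBPA is shown because this is the member that differed, and that of FOXA1 because it is the other measured member that RefSeq's promoter table holds. Each sequence is the 250 bases before the RefSeq start in GRCh38.p14, on the gene's own strand, with motif matches in capitals: chr19:33302535-33302784 (minus strand) for CEBPA and chr14:37595250-37595499 (minus strand) for FOXA1.
CEBPA: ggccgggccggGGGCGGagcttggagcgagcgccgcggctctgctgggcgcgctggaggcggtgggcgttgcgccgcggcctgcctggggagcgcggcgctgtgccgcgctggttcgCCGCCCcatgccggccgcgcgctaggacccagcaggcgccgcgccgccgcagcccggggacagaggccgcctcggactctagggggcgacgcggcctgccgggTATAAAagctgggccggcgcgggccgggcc
FOXA1: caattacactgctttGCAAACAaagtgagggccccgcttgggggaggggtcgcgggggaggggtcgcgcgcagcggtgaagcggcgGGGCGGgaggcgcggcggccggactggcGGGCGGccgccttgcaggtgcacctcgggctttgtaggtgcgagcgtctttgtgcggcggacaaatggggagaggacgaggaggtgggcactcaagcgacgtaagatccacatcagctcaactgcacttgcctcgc
The motifs searched on both strands were the C/EBP site TTGCNNAA, CCAAT, the C/EBP-ATF response element TGATGNAAT, the forkhead sites TGTTTAC and TGTTTGC, the E-box CACGTG, the GC box GGGCGG and TATAAA, chosen after the expression values were seen. In the CEBPA window the capitals mark 2 GC boxes, whose first bases lie 239 and 133 bases before the start, and TATAAA at 30 bases. In the FOXA1 window they mark the forkhead site TGTTTGC, on the opposite strand at 235 bases, and 2 GC boxes at 164 and 136 bases. No match overlapped another. Of 35116 RefSeq promoter windows of the same length, 42.6% hold the GC box, 10.7% hold TATAAA and 3.23% hold TGTTTGC. The motifs without a match in either window are found in 9.05% of windows for TTGCNNAA, 32.0% for CCAAT, 0.888% for TGATGNAAT, 2.98% for TGTTTAC and 6.34% for CACGTG. The windows are rich in G and C, 81.2% for CEBPA and 67.2% for FOXA1. The arrays measured RNA and no binding, so a match is only a description of the letters.

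FOXA2, a forkhead pioneer factor of endoderm and adult liver, differed little between the arrays. Its 1 measured bead probe had a normalized intensity of 1686 with the sorafenib probe and 1772 with sorafenib, against 2004 with DMSO. DMSO was the high array, with log2 differences of -0.25 for the sorafenib probe and -0.18 for sorafenib. Both lay within the middle 95% of the 500 genes of like intensity, which ran from -0.41 to 0.43 with the sorafenib probe and from -0.45 to 0.49 with sorafenib. Among those genes 51 were as low with the sorafenib probe and 101 with sorafenib. The other 2 FOXA2 bead probes were not above background on any array, with smallest detection p-values of 0.375 and 0.452. One of them is annotated to the same RefSeq transcript as the measured bead probe, NM_153675, and the other to NM_021784. The bead probe of the same transcript had 21.9 with DMSO, where the measured one had 2004, so the level of FOXA2 was not repeated. The FOXA2 level therefore rests on 1 of 3 bead probes that differ widely, and the reason was not tested.

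FOXA1, the close paralog that also acts as a pioneer factor in breast and prostate, had the smallest differences from DMSO of the 3 measured members. Its bead probe had a normalized intensity of 96.5 with the sorafenib probe and 92.2 with sorafenib, against 99.8 with DMSO. All 3 arrays lay within a log2 span of 0.11, with log2 differences of -0.05 for the sorafenib probe and -0.11 for sorafenib. The middle 95% of genes of like intensity ran from -0.56 to 0.64 and from -0.52 to 0.61. FOXA1 and FOXA2 were below 0 with both compounds under each of the 5 ways of scaling the intensities, from -0.04 to -0.30 for FOXA1 and from -0.17 to -0.40 for FOXA2. The lowest values came without normalization between arrays, where the median of all genes was itself -0.16 with the sorafenib probe and -0.19 with sorafenib. The median log2 difference of the 3 measured members was -0.05 with the sorafenib probe and -0.11 with sorafenib, in each case that of FOXA1, whereas the median of all 10396 genes was 0.00 with both.

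**Figure D2:**
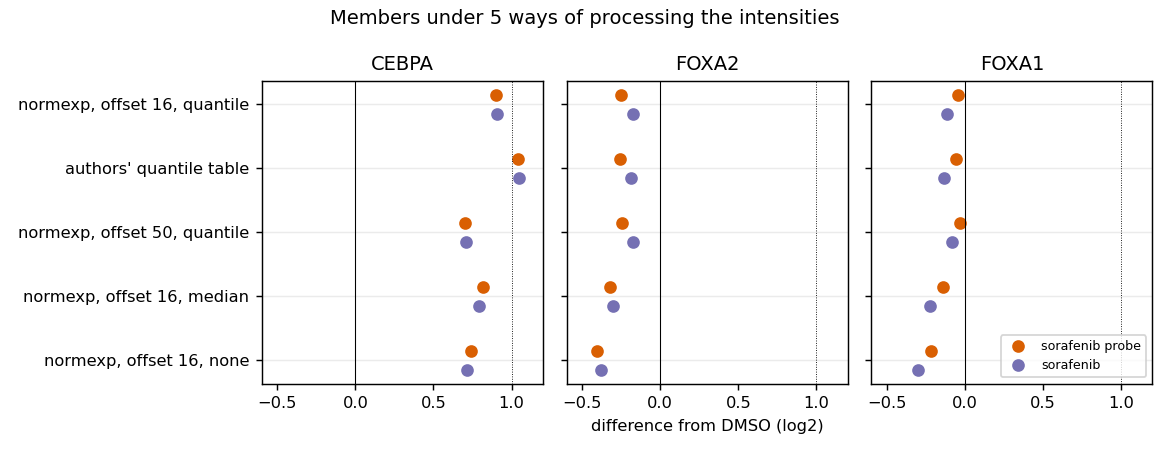
Log2 difference from DMSO (x axis) of CEBPA, FOXA2 and FOXA1 for the sorafenib probe and sorafenib under 5 ways of processing the intensities (rows), 1 array per group; the dotted line marks 2-fold higher. CEBPA lies between 0.70 and 1.05 in every row, and FOXA2 and FOXA1 lie below 0 in every row.

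FOXA3, ONECUT1 and PROX1 were not above background on any array. FOXA3, a paralog expressed in mature liver, came closest: its detection p was 0.112 with the sorafenib probe, 0.544 with sorafenib and 0.214 with DMSO, and its background-subtracted intensities in that order of arrays were 8.10, -1.03 and 5.27. ONECUT1, which acts in the choice between hepatocyte and bile duct cells, was read by 2 bead probes. Their detection p-values ran from 0.212 to 0.292 with the sorafenib probe, 0.642 to 0.790 with sorafenib and 0.366 to 0.496 with DMSO. PROX1, a regulator of hepatoblast migration and of lymphatic endothelium, had detection p-values of 0.957 with the sorafenib probe, 0.983 with sorafenib and 0.265 with DMSO. These bead probes were no brighter than many negative controls, so no difference was read from them and none was detectable here. A limit of 0.05 in place of 0.01 admitted no further member.

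Between the compounds the 3 measured members differed very little. The sorafenib probe minus sorafenib log2 difference was 0.00 for CEBPA, -0.07 for FOXA2 and 0.07 for FOXA1, with a median of 0.00. The middle 95% of genes of like intensity ran from -0.35 to 0.40 for CEBPA, from -0.24 to 0.28 for FOXA2 and from -0.47 to 0.45 for FOXA1. None of the 3 was 1.5-fold apart, as was the case for most genes: of 10054 genes, 0.736% were higher by 1.5-fold or more with the sorafenib probe than with sorafenib and 0.547% were lower, and at 2-fold the shares were 0.0199% and 0.0298%. With 1 array per compound, this does not show that the added photoaffinity group and alkyne leave these genes untouched.

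The other measured C/EBP genes lay on the same side of DMSO as CEBPA under the processing used here. This grouping by protein family was made after the values were seen. Of 6 family genes, 5 were above background on all arrays and all 5 were higher with both compounds, with medians of 0.53 for the sorafenib probe and 0.46 for sorafenib. CEBPA itself is counted among the 5 and in the medians, so neither is a separate check on it. Among all 10396 genes, 49.9% lay above 0 with the sorafenib probe and 49.4% with sorafenib. Both comparisons share the DMSO array, so the 2 counts are not independent. CEBPB, which responds to inflammatory and stress signals, had 2010 with the sorafenib probe and 2328 with sorafenib, against 1384 with DMSO, log2 differences of 0.54 and 0.75. CEBPD, an acute-phase factor, had 368 and 420, against 305 with DMSO, log2 differences of 0.27 and 0.46. CEBPG, a partner of ATF4, had 640 and 541, against 442 with DMSO, log2 differences of 0.53 and 0.29. DDIT3, the stress-induced member also called CHOP, had 67.9 with the sorafenib probe, 50.4 with sorafenib and 49.1 with DMSO, so that only the sorafenib probe array stood out (log2 differences of 0.47 and 0.04). With median scaling or without normalization the DDIT3 difference with sorafenib turned to -0.01 and -0.09, and the 4 others stayed above 0 under all 5 scalings. The median of all genes with sorafenib was itself -0.11 and -0.19 in these settings, below DDIT3. CEBPE, a factor of granulocytes, was not above background. CEBPA had the largest difference of the 5 with each compound under the processing used here, but with an offset of 50 CEBPB was larger with sorafenib (0.74, against 0.71 for CEBPA).

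**Figure D3:**
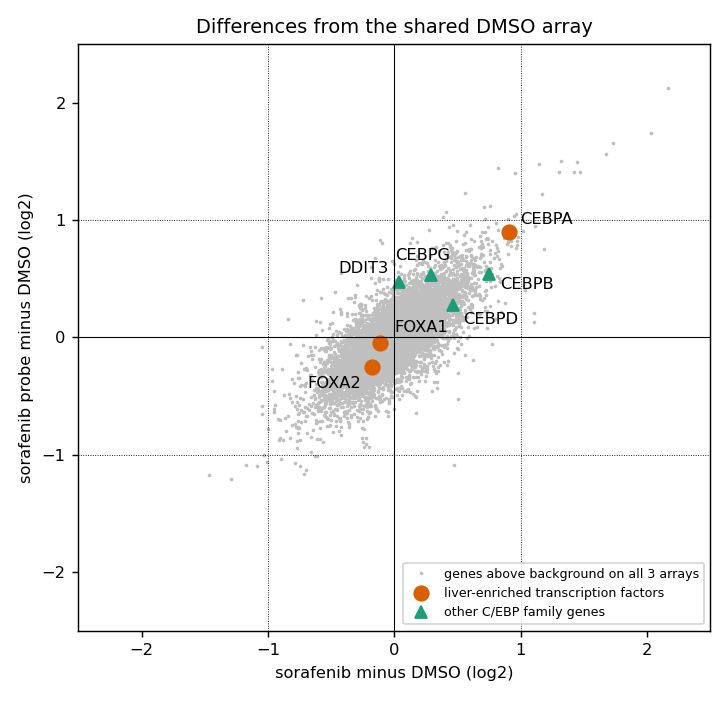
Log2 difference from DMSO with sorafenib (x axis) and with the sorafenib probe (y axis) for the 8750 genes above background on all arrays (grey), the 3 measured liver-enriched transcription factors (circles) and 4 other C/EBP family genes (triangles); dotted lines mark 2-fold. Both axes share the DMSO array, which by itself stretches the cloud along the diagonal. CEBPA sits at 0.90 and 0.90 at the edge of the cloud, and FOXA1 and FOXA2 lie inside it near 0.

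Around the members, a list of 42 partner transcription factors and cofactors was read in the same way. It holds nuclear receptors that pair with or act beside HNF4A and NR1H4, and other liver homeodomain factors. Basic leucine zipper factors, forkhead factors, further transcription factors, corepressors and coactivators are also in it. CEBPB, CEBPD and CEBPG, described above with the C/EBP family, are counted again here. Of these, 36 had a bead probe and 22 were above background on at least 1 array. With each compound 13 lay above 0 and 9 below, with a median log2 difference of 0.11 for the sorafenib probe and 0.13 for sorafenib. The split leaned on the scaling. Of the 19 above background on all arrays, 12 lay above 0 with each compound. Without normalization between arrays, 8 did so with the sorafenib probe and 6 with sorafenib. There the median of all genes was itself -0.16 with the sorafenib probe and -0.19 with sorafenib, and that of the 19 was higher, at -0.03 and -0.08. None was 2-fold apart from DMSO. At 1.5-fold, 0 were higher and 1 lower with the sorafenib probe, and 1 was higher (CEBPB) and 1 lower with sorafenib, near the shares of all genes given above.

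NR5A2, a nuclear receptor that acts with NR1H4 in bile acid synthesis, was the gene at least 1.5-fold lower with the sorafenib probe. It had 208 with the sorafenib probe and 211 with sorafenib, against 315 with DMSO, log2 differences of -0.60 and -0.57. Its second bead probe had 195 and 200, against 254 with DMSO, log2 differences of -0.38 and -0.35, lower in both arrays again. TBX3, a T-box factor of the liver bud, was lower with sorafenib alone, at 69.5 with the sorafenib probe and 46.4 with sorafenib, against 73.6 with DMSO (log2 differences of -0.08 and -0.66). RXRA, the shared partner of NR1H4 and other nuclear receptors, had 613 and 556, against 507 with DMSO, and ATF5 had 655 and 679, against 623 with DMSO.

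**Figure D4:**
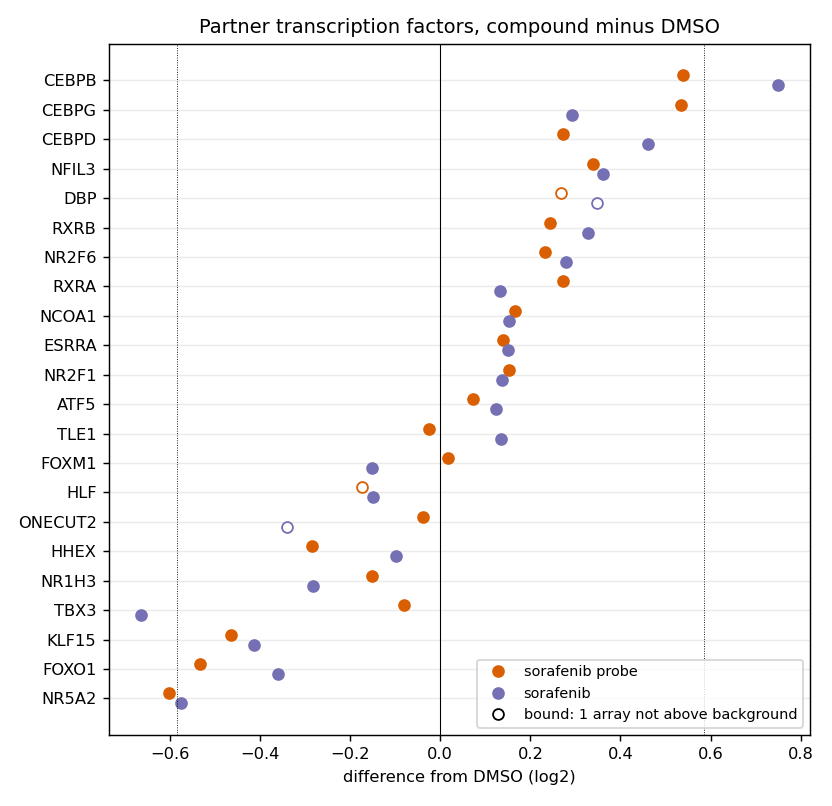
Log2 difference from DMSO (x axis) for the sorafenib probe and sorafenib in the 22 partner transcription factors above background on at least 1 array (rows, ordered by mean difference), 1 array per group; open circles are lower bounds where 1 array was not above background, and dotted lines mark 1.5-fold. CEBPB leads the list at 0.54 and 0.75 and NR5A2 closes it at -0.60 and -0.57.

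Few genes that the members are known to control could be measured. Of 39 listed target genes, 36 had a bead probe and 6 were above background on at least 1 array. FOXA2, itself a member, is 1 of these 6, listed as a target of ONECUT1. Among all genes with a named bead probe, 10396 of 20046 were above background on at least 1 array. None of the 11 HNF4A targets with a bead probe, which include the apolipoprotein genes APOA1 and APOB, was above background. Of the 7 CEBPA targets, 2 were measured. ALB, the albumin gene, had 49.6 with the sorafenib probe, 38.7 with sorafenib and 48.1 with DMSO, log2 differences of 0.04 and -0.31. CPS1, the first enzyme of the urea cycle, had 115, 99.1 and 114, log2 differences of 0.02 and -0.20. The largest rise over DMSO among these 4 differences was the 0.04 of ALB with the sorafenib probe. ALB lay close to the lowest intensity above background on the arrays (34.0 to 34.8). Of the 7 FOXA targets, 2 were measured, CPS1 with the values above and IGFBP1. IGFBP1, which codes for a binding protein of insulin-like growth factors, was above background with DMSO alone (43.7). It was at least 1.29-fold lower with the sorafenib probe and at least 1.28-fold lower with sorafenib.

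The NR1H4 targets held the 1 gene of the list that passed 1.5-fold. SLCO1B3, a hepatocyte transporter that takes up bile acids, had 65.2 with the sorafenib probe and 83.0 with sorafenib, against 139 with DMSO. The log2 differences were -1.09 and -0.75, and they kept their sign under all 5 scalings (-0.57 to -1.32). SDC1, a heparan sulfate proteoglycan, had 889 with the sorafenib probe, 771 with sorafenib and 817 with DMSO, log2 differences of 0.12 and -0.08. The other 12 listed NR1H4 targets, which include NR0B2 and the bile salt export pump ABCB11, were not above background.

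The liver label was checked against its markers. Of 22 hepatocyte or hepatoblast markers, 4 were above background on at least 1 array: ALB, CPS1, FGA and APOH. Among all genes with a named bead probe this held for 10396 of 20046. Most of the listed liver markers therefore did not bear out the label. FGA, a fibrinogen chain, had 50.6 with the sorafenib probe and 47.1 with sorafenib, against 34.9 with DMSO, log2 differences of 0.53 and 0.43. The DMSO value lay next to the lowest intensity above background on that array (34.8). Of its 2 other bead probes above background on at least 1 array, one was so on 2 arrays and the other on 1. The first had 44.3 with the sorafenib probe, 43.4 with sorafenib and 31.6 with DMSO, and the other 24.5, 35.8 and 29.4. Since some of these values were not above background, no difference was read from them. APOH was above background with DMSO alone (52.0) and at least 1.53-fold lower with the sorafenib probe and at least 1.52-fold lower with sorafenib. The fetal liver markers AFP, GPC3 and DLK1 and the plasma protein genes TTR, SERPINA1 and TF were not above background. The summed normalized intensity of the 4 genes was 245 with the sorafenib probe, 212 with sorafenib and 249 with DMSO. The sums count APOH also where it was not above background and add different bead probes, so they are only a rough guide.

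Markers of bile duct and progenitor cells were read in the same way. Of 9 with a bead probe, 6 were above background on all arrays, and 5 of them lay below DMSO with each compound. Among all 10396 genes, 50.0% lay below 0 with the sorafenib probe and 50.5% with sorafenib. The medians of the 6 markers were -0.26 with the sorafenib probe and -0.20 with sorafenib. SPP1, which codes for osteopontin, had 472 with the sorafenib probe and 405 with sorafenib, against 622 with DMSO, log2 differences of -0.40 and -0.62, and its second bead probe gave -0.60 and -0.47. KRT19, a bile duct keratin, had 190 and 201, against 265 with DMSO, log2 differences of -0.48 and -0.40. KRT7, the other bile duct keratin, was the exception, with 3084 and 2579, against 2449 with DMSO, log2 differences of 0.33 and 0.07. With median scaling or without normalization the KRT7 difference with sorafenib turned to -0.10 and -0.17, while that with the sorafenib probe stayed above 0. The median of all genes with sorafenib was itself -0.11 and -0.19 in these settings. CD24, a cell surface glycoprotein gene, had 2757 with the sorafenib probe, 2730 with sorafenib and 3024 with DMSO, log2 differences of -0.13 and -0.15. Its second bead probe, above background on all arrays, lay on the other side of DMSO with 0.11 and 0.02, so the direction of CD24 is not settled.

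Most markers of other cell types were not above background, but a few were measured well above it. None of 6 endothelial markers, which include the lymphatic markers LYVE1, PDPN and FLT4, and none of 3 intestinal ones was above background. Of 4 blood and macrophage markers, 2 were measured, CD14 and CD68, while the defining marker PTPRC was not above background. Their summed intensity was 682 with the sorafenib probe, 741 with sorafenib and 727 with DMSO, and CD14 had log2 differences of 0.56 and 0.75. CD68 lay on the other side of DMSO, with log2 differences of -0.26 and -0.17, and its second bead probe gave -0.17 and -0.40. Of 6 fibroblast and stellate markers, ACTA2 was measured on all arrays (191, 178 and 275, log2 differences of -0.53 and -0.63). COL1A1 was measured on the sorafenib probe array alone. Their summed intensity was 228, 202 and 300, which counts COL1A1 also where it was not above background. CD14 was higher and CD68 and ACTA2 were lower with both compounds, and their part in the CEBPA difference was not tested.

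The genes whose pair of differences from DMSO lay nearest to that of CEBPA were EIF4EBP1, DHRS3 and ADAP1, among 8749 other genes over the 3 arrays. EIF4EBP1, a repressor of cap-dependent translation, had 129 with the sorafenib probe and 131 with sorafenib, against 71.7 with DMSO. DHRS3, a retinal reductase, had 379 and 406, against 214 with DMSO. ADAP1 had 253 and 238, against 135 with DMSO. Their distances to CEBPA on the log2 scale were 0.07, 0.08 and 0.08, which says only that the values lie close.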

How the data were processed

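The authors deposited 2 intensity tables and a detection p-value for each bead probe and array. The first table is named as not normalized, but above its floor of 1, 98.2% of its sorted values were equal on the 3 arrays, so it is quantile normalized. The deposited detection p-values compare each bead probe with the negative controls of its array. The second deposited table holds background-subtracted intensity values that are not normalized between arrays, and it was used here. The scanner software and its settings are not given in the sources used.

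In limma 3.58.1 (R 4.3.3), a normexp background model was fitted by way of the detection p-values (offset 16), followed by quantile normalization and log2. Values were then handled in Python 3.11.15 with pandas 2.3.3 and numpy 2.4.6. The steps were tested on simulated data. Bead probes were named from the platform annotation (30113 with 1 symbol, 8 with several, 17202 not listed), with symbols updated by Entrez identifier (99.9% matched RefSeq's GRCh38.p14 table). Bead probes above background on at least 1 array were kept, and a gene was read by its brightest one (10396 genes). Where 1 array of a pair was not above background, the difference is a bound, taken from the lowest intensity above background on the dim array or from the dim value if that was larger. No test was made, since each group is 1 array, and the number of arrays limits the precision. Alternatives were the authors' normalized table, an offset of 50, median scaling, no normalization, other detection filters, the mean of a gene's bead probes, and thresholds of 1.5-fold and 3-fold. Members are given with every bead probe. From the other lists, genes above background on both arrays and at least 1.5-fold from DMSO with either compound (at most 4 per list, by mean difference) and the 3 of highest intensity are named, with the 3 genes nearest to CEBPA, and genes named beyond this were chosen after their values were seen. Members and lists were chosen with earlier results of these data known. Of the 8 members, 6 matched RefSeq's promoter table.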

Additional observations from a re-analysis of the deposited data

How the results depend on the processing

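The 3 measured members kept the direction of their differences from DMSO under all alternatives tried. The number of members at least 2-fold higher than DMSO was 0, and it became 1 (CEBPA) with the sorafenib probe and 1 with sorafenib on the authors' quantile normalized table, and likewise 1 and 1 at a threshold of 1.5-fold. An offset of 50 lowered the CEBPA difference to 0.70 with the sorafenib probe and 0.71 with sorafenib, and leaving out normalization moved FOXA2 to -0.40 and -0.38. Over all 10396 genes the measured number at least 2-fold higher than DMSO was 56 with the sorafenib probe and 35 with sorafenib, against 413 and 419 on the authors' table and 10 and 10 with an offset of 50. The number lower was 31 and 32, against 350 and 367 and against 2 and 2. The median of the partner transcription factors with sorafenib turned to -0.08 without normalization. Outside the counts and medians of the members, 196 values differed by less than the spread used and 20 by more, most of the 20 in lists with few measured genes. The median of all genes was 0.00 with each compound. It was -0.07 with the sorafenib probe and -0.11 with sorafenib under median scaling, and -0.16 and -0.19 without normalization. Since no replicates exist, shifts were compared with the SD of the difference between the compounds, taken for each member over its 500 genes of like intensity (0.192 for CEBPA, 0.131 for FOXA2, 0.220 for FOXA1) and for medians over all genes above background on all arrays (0.195). The number of members above background has no value without a detection filter. No paired analysis was possible because each group is 1 array. Bead probes near background limit FOXA3, ONECUT1 and PROX1.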

Other observations

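The forkhead family, FOXA1 and FOXA2 included, was split in direction. Of its 51 genes in RefSeq, 19 were above background on all arrays, 10 of them above 0 and 9 below with the sorafenib probe, and 8 above and 11 below with sorafenib. The medians were 0.02 and -0.02. FOXQ1 had 222 with the sorafenib probe and 229 with sorafenib, against 390 with DMSO, log2 differences of -0.82 and -0.77, and stayed below 0 under 5 scalings. FOXO1, which drives gluconeogenic genes in fasting, had 40.5 with the sorafenib probe and 45.6 with sorafenib, against 58.6 with DMSO, log2 differences of -0.53 and -0.36. FOXD1 lay on the other side, with 177 and 185, against 125 with DMSO, log2 differences of 0.51 and 0.57. FOXD4, outside the 19 because it was not above background with DMSO, had 42.4 with the sorafenib probe and 67.7 with sorafenib. It was higher than DMSO by at least 0.28 and 0.96 on the log2 scale, and was the 1 forkhead gene at least 1.5-fold higher with sorafenib. These genes were chosen after their values were seen.

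Of the genes that RefSeq places next to CEBPA and FOXA2, the transporter gene SLC7A10 beside CEBPA was not above background. The long noncoding RNA gene LINC00261 beside FOXA2 was above background with sorafenib alone, at 31.6 with the sorafenib probe, 34.4 with sorafenib and 32.7 with DMSO.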
